A study of Mus musculus with 8 samples.

Results

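RNA from 3T3-L1 cells was compared between stages taken here as arrested and stages taken here as cycling. The line is one of fibroblast-like preadipocytes from Swiss albino mouse, which hormones turn into fat cells. The arrested stages were quiescence, reached after 48 hours at confluence, and differentiation, 6 days after the adipogenic cocktail. The cycling stages were exponential proliferation and clonal expansion, the round of division that confluent cells enter after the cocktail, sampled 10 hours after it was added. The cocktail held dexamethasone, a glucocorticoid, at 1 µM, isobutylmethylxanthine, which raises cyclic AMP, at 0.25 mM and insulin at 5 µg/µl as the labels write it. The cocktail was on the cells for 48 hours and was followed by insulin alone, so the clonal expansion and differentiated cells had met hormones that the proliferating and quiescent cells had not. Each stage had 2 libraries, which gave 4 arrested against 4 cycling libraries and took in all 8 libraries of the series. The labels do not say whether the libraries of a stage were separate cultures, and the p-values therefore cover the spread among these 8 libraries only, and that spread may be technical. A gene was counted as apart when all 4 arrested libraries lay beyond all 4 cycling ones and the difference between the states had an adjusted p under 0.05. Of 14647 genes tested, 1318 (9.00%) were apart and higher in the arrested stages and 1425 (9.73%) were apart and lower.

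Cells leave the cycle either reversibly, as in confluence-induced quiescence, or as part of a differentiation program. In both, pocket proteins with E2F factors are known to hold down the genes of DNA replication, and the related DREAM complex those of mitosis, the latter through a promoter element called the cell cycle genes homology region (CHR). Contact inhibition, inhibitors of cyclin-dependent kinases and FoxO factors act upstream of this. The series asks how imprinted genes, which are expressed from a single parental copy, relate to cell cycle exit and differentiation, and setting both arrests against both cycling stages asks which genes follow the cell cycle state in common. Division itself was not measured, and in this design arrest cannot be told apart from cell density and hormone treatment.

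The values were pseudo-counts, which the authors made by scaling reads to an equal library size, with library sums between 122413485 and 151529060. Across genes, the 2 libraries of a stage were correlated with r of 0.9929 to 0.9957 on the log2 scale, and their median absolute log2 difference was largest at quiescence (0.214, against 0.128 to 0.149). Levels of different genes are not compared below, since the values are not per transcript length. Fibroblast markers (12 of 12 with a mean of at least 10) summed to between 2033000 and 7302000 in every library. Fat cell markers summed to between 4796 and 7986 at the other stages and to 2938000 and 3011000 at differentiation. Macrophage and blood markers (6 of 13 with a mean of at least 10) summed to between 1237 and 7103. Of these, Cd3e and Hba-a1 were below 1 in every library, and the epithelial marker Epcam was below 1 throughout. Endothelial markers (5 of 9 with such a mean) summed to between 173 and 536. Nerve and glia markers (8 of 10) summed to between 2352 and 4707. Epithelial markers summed to between 70.8 and 307 at the other stages and to 2900 and 1311 at differentiation, so that they moved with the fat cell markers, and their part in the results was not tested. Muscle, bone and cartilage markers summed to between 25400 and 32740 at proliferation and quiescence and to between 10850 and 12630 at clonal expansion and differentiation. The differentiated libraries thus hold transcripts of both fat cell and fibroblast markers, and whether the same cells carry both was not tested. In such bulk samples fewer cells of a type and less RNA per cell cannot be told apart. Differences below are of log2(value + 1), which understates the change of genes with low values. They are given as mean of the 4 arrested minus mean of the 4 cycling libraries with the standard error (SE). The SE comes from the spread between the 2 libraries of each stage and leaves out differences between the stages of a state.

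Both replication and mitotic transcripts were lower in the arrested stages, and the 2 cycling stages differed in which of them they carried. The promoters of 5 such genes are shown because they hold the letters by which E2F and DREAM are known to act, and that of Txnip, a growth inhibitor that FoxO factors induce, because it had the widest gap among the FoxO target genes that went the other way. Each is the 200 bases before the transcription start, 5′ to 3′ on the gene's strand, from RefSeq on GRCm38.p6. Capitals mark CCAAT boxes (CCAAT or its complement ATTGG) in all but Cdc6. They also mark E2F letters in Cdc6 and Mcm5, CHR letters (TTTGAA or, as an alternative, TTCGAA, and their complements) in Cdk1, Top2a and Mki67, and forkhead letters in Txnip.
Cdc6 (chr11:98907951-98908150, plus strand): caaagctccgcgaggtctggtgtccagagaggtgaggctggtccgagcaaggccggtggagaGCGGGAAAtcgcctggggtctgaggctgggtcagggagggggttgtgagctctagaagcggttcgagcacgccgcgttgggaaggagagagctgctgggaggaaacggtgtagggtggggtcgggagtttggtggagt
Mcm5 (chr8:75109309-75109508, plus strand): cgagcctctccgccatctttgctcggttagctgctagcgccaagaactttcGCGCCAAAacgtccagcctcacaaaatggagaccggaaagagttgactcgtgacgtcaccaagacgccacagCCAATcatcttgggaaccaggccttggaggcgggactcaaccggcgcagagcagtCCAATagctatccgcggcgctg
Cdk1 (chr10:69352913-69353112, minus strand): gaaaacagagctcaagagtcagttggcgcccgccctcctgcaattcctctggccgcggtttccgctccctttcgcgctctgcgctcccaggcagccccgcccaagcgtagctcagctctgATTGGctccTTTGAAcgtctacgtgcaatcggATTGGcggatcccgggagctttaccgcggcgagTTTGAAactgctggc
Top2a (chr11:99024190-99024389, minus strand): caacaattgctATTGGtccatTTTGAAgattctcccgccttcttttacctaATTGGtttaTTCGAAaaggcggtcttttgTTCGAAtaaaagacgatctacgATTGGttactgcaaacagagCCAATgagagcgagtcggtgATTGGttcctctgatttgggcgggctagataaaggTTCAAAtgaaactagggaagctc
Mki67 (chr7:135716380-135716579, minus strand): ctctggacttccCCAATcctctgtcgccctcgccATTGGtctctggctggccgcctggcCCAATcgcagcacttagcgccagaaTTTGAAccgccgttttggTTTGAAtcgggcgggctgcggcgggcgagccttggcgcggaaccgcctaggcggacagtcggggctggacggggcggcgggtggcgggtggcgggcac
Txnip (chr3:96557757-96557956, plus strand): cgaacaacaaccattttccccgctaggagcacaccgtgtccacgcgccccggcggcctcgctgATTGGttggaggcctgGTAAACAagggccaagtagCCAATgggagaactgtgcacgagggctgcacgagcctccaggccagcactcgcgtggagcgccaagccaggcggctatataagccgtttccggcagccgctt
Cdc6 and Mcm5 act in loading the replicative helicase, Cdk1 is the mitotic kinase, Top2a untangles chromosomes and Mki67 is the Ki-67 proliferation antigen. In Cdc6 the E2F letters began 138 bases before the start, and in Mcm5 149 bases before it. The CHR letters of Cdk1 began at 71 and 15 bases before the start, the first of them after a CCAAT box at 80. Mki67 had CHR letters at 116 and 98 bases before its start and Txnip its forkhead letters at 121. Windows from 250 bases before to 50 after the start were in the table for 11440 of the 14647 genes tested, 14481 windows in all. E2F letters (TTTGGCGC, TTTCCCGC or GGCGGGAA on either strand, where the complement of the second can overlap the third) stood in 5.4% of these windows, in 38.0% of the 50 windows of replication genes that were apart and in 17.3% of the 52 of mitotic genes that were apart. CHR letters stood in 14.1% of all tested windows, in 22.0% of the replication windows and in 67.3% of the mitotic ones. CCAAT stood in 37.8%, 56.0% and 75.0%. These lists are of known cell cycle genes, so their shares reflect the choice of members, and a relation to arrest was not tested. Over all genes apart, E2F letters stood in 10.4% of the windows of lower genes and 3.8% of those of higher genes. Forkhead letters (TGTTTAC) stood in 3.0% of each and 2.6% of all tested. CHR letters stood in 17.5% of the windows of lower and 14.1% of those of higher genes, against 14.1% of all tested. CCAAT stood in 42.3% and 38.7%, against 37.8%. These are letter matches and not measured sites.

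Of the 52 DNA replication and G1/S genes tested, 50 were apart and lower in the arrested stages and none was higher, where 9.73% of all tested genes were lower. The exceptions were Gins4 and Rpa3. The median difference over the list was -1.54, against 0.01 over all genes tested. Mcm5, a subunit of the replicative helicase, measured 17880.0 and 25976 at proliferation, 44976 and 45433 at clonal expansion, 8006 and 6827 at quiescence and 3152 and 3542 at differentiation. The arrested libraries lay well below the cycling ones, and the difference was -2.65 ± 0.11 (limma adjusted p = 6.23e-08). Cdc6, which loads that helicase at origins, measured 2034 and 3025 at proliferation, 10474 and 10952 at clonal expansion, 881 and 839 at quiescence and 809 and 685 at differentiation, a difference of -2.69 ± 0.12. Uhrf1, which carries DNA methylation through replication, measured 15783 and 20791 at proliferation, 28641 and 31289 at clonal expansion, 6823 and 5975 at quiescence and 2540.3 and 2492 at differentiation (-2.54 ± 0.10). Pcna, the sliding clamp of the polymerases, lay at 8879 to 27148 in cycling and 3540.0 to 6245 in arrested libraries. Mcm2, another helicase subunit, lay at 18944 to 46684 in cycling and 7024 to 12874 in arrested libraries, and Mcm10, an initiation factor, at 2807 to 5967 in cycling and 788 to 1229 in arrested libraries. The cycling stages were not equal in these transcripts: 44 of the 50 were highest at clonal expansion, 37 were called higher there than at proliferation (32.7% of all tested genes were), and the median difference over the list was 0.75. Nor were the arrests alike, since 43 of the 50 were lowest at differentiation. Of the 52 tested, 33 were called lower at differentiation than at quiescence (32.9% of all tested genes were) and 4 higher. The step from proliferation to quiescence had a median of -0.92 and that from clonal expansion to differentiation one of -2.24.

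Enzymes that make DNA precursors went with them. Of 25 nucleotide synthesis genes, 16 were apart and lower and none higher. Rrm2, the regulated subunit of ribonucleotide reductase, measured 11169 and 18654 at proliferation, 70532 and 66055 at clonal expansion, 4693 and 4069.9 at quiescence and 2772 and 2974 at differentiation, a difference of -3.15 ± 0.14 (limma adjusted p = 6.75e-08). Its partner Rrm1 lay at 24153 to 43535 in cycling and 8873 to 14013 in arrested libraries. Tyms, which makes thymidylate, lay at 4974 to 7700.3 in cycling and 1385 to 3034 in arrested libraries. Of 26 genes for DNA repair by homologous recombination, 22 (84.6%) were apart and lower, and Brca1, Xrcc3, Fancc and Chek2 were not apart. The widest gaps there were in Fanca, of the Fanconi anaemia core complex (at 2282 to 3122 in cycling and 417 to 989 in arrested libraries), Exo1, an exonuclease (at 2304 to 6746 in cycling and 478 to 1040.5 in arrested libraries), and Rad54l, a DNA-dependent ATPase of this pathway (at 1485 to 2088 in cycling and 423 to 684 in arrested libraries).

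Mitotic genes gave a mixed account. All 90 tested members were called lower in the arrested stages by the difference between states (32.7% of all tested genes were), with a median of -1.50, but only 54 (60.0%) were apart. Top2a measured 28904 and 42226 at proliferation, 62427 and 56193 at clonal expansion, 14975 and 14442 at quiescence and 7834 and 6641 at differentiation, a difference of -2.14 ± 0.12 (limma adjusted p = 2.3e-07), and Cdk1 9015 and 13122 at proliferation, 9560.4 and 8588 at clonal expansion, 5554 and 4232 at quiescence and 3701 and 3147 at differentiation (-1.29 ± 0.13). Among the widest gaps were Cenpi, a centromere protein (at 2864 to 4627 in cycling and 897 to 1334 in arrested libraries), Mad2l1, of the spindle checkpoint (at 7104 to 10425 in cycling and 2163 to 3505 in arrested libraries), and Cdca5, which holds sister chromatids together (at 2122 to 3233 in cycling and 811 to 1041 in arrested libraries). Mki67 was among the 36 that were not apart, at 37134 and 51212 at proliferation, 14629 and 12322 at clonal expansion, 14127 and 14537 at quiescence and 6162 and 4998 at differentiation. Its clonal expansion libraries sat at the level of the quiescent ones and far below the proliferating ones. Ccnb1, the mitotic cyclin B1, was also highest at proliferation and lowest at differentiation, at 4545 and 6824 at proliferation, 2455 and 1825 at clonal expansion, 2052 and 1505 at quiescence and 1255 and 1118 at differentiation. Over these 36 genes, clonal expansion and quiescence were not called different in 27, clonal expansion was lower in 7 and higher in 2, and the median difference of quiescence minus clonal expansion was -0.03. A p that misses the threshold does not show equal levels. Over the 54 genes that were apart, clonal expansion was called above quiescence in 42, with a median difference of -0.63. Being apart and lower requires both clonal expansion libraries to lie above both quiescent ones. The contrast between the 36 and the 54 genes is therefore set in part by the selection. Over all 90, clonal expansion was called above quiescence in 44 (34.4% of all tested genes were) and below it in 7. Proliferation was the highest stage in 80 of the 90 and clonal expansion, at 10 hours, in 10, Top2a among them. Clonal expansion was called below proliferation in 72 (32.1% of all tested genes were) and above it in 4. CHR letters were in 72.7% of the 33 windows of mitotic genes that were not apart, and E2F letters in none of those windows.

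**Figure D1:**
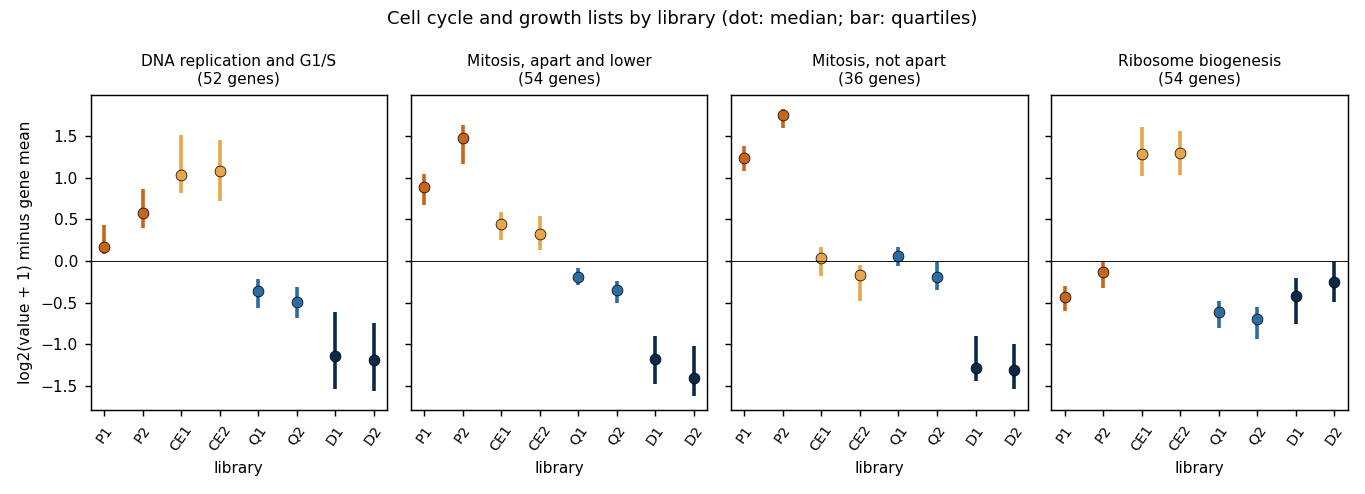
Median (dot) and quartiles (bar) of log2(value + 1) minus each gene's mean over the 8 libraries, for 4 sets of genes by library: P proliferation, CE clonal expansion, Q quiescence, D differentiation. Replication genes are highest in both CE libraries and mitotic genes in both P libraries. The 36 mitotic genes that were not apart have CE and Q at like levels. Being apart and lower requires CE above Q, so the split of the mitotic genes is set in part by the selection.

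Regulators of the cycle moved less uniformly. Of 17 cyclins and their kinases, 5 (29.4%) were apart and lower and none higher, against 9.73% and 9.00% of all tested genes. Ccnd1, the mitogen-induced cyclin D1, measured 88354 and 106267 at proliferation, 161159 and 152405 at clonal expansion, 66974 and 57759.7 at quiescence and 7113 and 10551 at differentiation, with differentiation far below every other stage. Ccna2, the S and G2 phase cyclin, lay at 7945 to 19978 in cycling and 2054 to 5917 in arrested libraries, and Ccnf, a cyclin that is part of a ubiquitin ligase, at 4883 to 9756 in cycling and 1644 to 3323 in arrested libraries. Ccne1, which drives entry into S phase, was not apart, at 3687 and 5556 at proliferation, 11794 and 11642 at clonal expansion, 2568 and 2097 at quiescence and 6542 and 6502 at differentiation: differentiation exceeded proliferation. Of 18 genes of the E2F and pocket protein network, 6 (33.3%) were apart and lower and 1 (5.6%) was higher. E2f7 and E2f8, the atypical repressive E2Fs, had the widest gaps, with E2f7 at 2923 to 4232 in cycling and 249 to 1143 in arrested libraries and E2f8 at 2182 to 3496 in cycling and 265 to 913 in arrested libraries. Mybl1, a Myb family factor, lay at 1001 to 1387 in cycling and 322 to 669.7 in arrested libraries. Rbl2, the pocket protein p130 that is known to predominate in quiescent cells, was the higher one, at 8838 and 8227 at proliferation, 4251 and 4463 at clonal expansion, 9426 and 11165 at quiescence and 9404 and 8848 at differentiation. Its groups were separated by a gap of under 0.01, and the proliferating libraries sat close to both arrested stages while clonal expansion was low. E2f1 was lower in the contrast (-0.91 ± 0.08) without being apart, and so was Rbl1, which encodes p107 (-0.54 ± 0.12). Myc was highest at clonal expansion and lowest at quiescence, at 4695 and 7908 at proliferation, 31529 and 30707 at clonal expansion, 3062 and 2794 at quiescence and 10325 and 11533 at differentiation, and was not apart. Rbl2 was no longer apart with the same total per library or after quantile normalization, and without proliferation 1 the cyclins apart and lower were 8 and the E2F network genes 10. The network genes apart and higher were 2 without proliferation 1 and 3 without quiescence 1.

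Among 7 inhibitors of cyclin-dependent kinases, 2 were apart and higher, where 9.00% of all tested genes were. Cdkn1c, the imprinted inhibitor p57, measured 1.04 and 0.92 at proliferation, 0 and 1.15 at clonal expansion, 25.4 and 26.3 at quiescence and 40.7 and 48.2 at differentiation. At most about 1 pseudo-count was present in any cycling library and at least 25.4 in any arrested one, a gap of 3.62 on the log2 scale (limma adjusted p = 2.51e-06). Its step to quiescence was 3.76 and its step to differentiation 4.95, and a difference between the steps was not called (limma adjusted p = 0.16). At these low values it was not tested with a mean of at least 50. Cdkn2c, the inhibitor p18, measured 2044 and 2352 at proliferation, 1222 and 1131 at clonal expansion, 2927 and 2788 at quiescence and 19570.2 and 24587 at differentiation, with its rise from clonal expansion to differentiation at 4.22 and the step from proliferation to quiescence not called (0.38, limma adjusted p = 0.0637). Cdkn1b, the inhibitor p27 associated with contact inhibition, was not called, at 12543 and 12152 at proliferation, 5782 and 6117 at clonal expansion, 12096 and 13694 at quiescence and 6864 and 6819 at differentiation: it was low at clonal expansion and differentiation and high at proliferation and quiescence. Cdkn1a, or p21, was not called in the contrast, at 36838 and 36385 at proliferation, 39937 and 32568 at clonal expansion, 29909 and 25120.1 at quiescence and 40178 and 41209 at differentiation, and quiescence, its lowest stage, was called below proliferation (-0.42, limma adjusted p = 0.0365). Of 24 genes named for growth arrest, 1 (4.2%) was apart and higher and 3 (12.5%) were lower, against 9.00% and 9.73% of all tested genes. By the contrast 10 were higher and 11 lower, with a median difference of -0.17. Ddit3, a stress-induced C/EBP factor, was the higher one (at 2243 to 6188 in cycling and 6817 to 19217 in arrested libraries), and Gadd45b, S1pr1 and Zfp36l2 were lower, a count of 1 after quantile normalization and of 5 without quiescence 1. Those higher were 2 after quantile normalization and without differentiation 2, proliferation 1 or quiescence 2. Gas6, a secreted ligand named for growth arrest, measured 153570.5 and 125101 at proliferation, 639536 and 539938 at clonal expansion, 217224 and 171266 at quiescence and 117477 and 129913 at differentiation, with clonal expansion the highest stage.

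Beyond single regulators, the difference between states was widespread but was rarely shared evenly by both arrests. By the contrast alone 5035 genes (34.4%) were higher and 4793 (32.7%) lower, and only 26.2% and 29.7% of these were apart. A step here is the difference from a cycling stage to the arrested stage that was compared with it, proliferation to quiescence and clonal expansion to differentiation. Among the higher genes that were apart, the first step had a median of 0.521 and the second one of 1.582. Among the lower genes the medians were -0.487 and -1.447. Over all tested genes the first step was called up in 11.9% and down in 11.8%, and the second in 36.8% and 36.2%. Both steps were called in 600 of the higher and 721 of the lower genes, only the second in 662 and 645, only the first in 32 and 31, and neither in 24 and 28. The steps were called different in 885 and 1009 of them (60.0% of all tested genes were), and the second was the larger in 856 and 993. Differentiation was the extreme arrested stage in 1028 and 1145, and clonal expansion the extreme cycling stage in 1025 and 1106. In 281 higher and 238 lower genes neither the 2 arrests nor the 2 cycling stages were called different. Over all tested genes differentiation was called above quiescence in 33.4% and below it in 32.9%. Clonal expansion was called above proliferation in 32.7% and below it in 32.1%. For the extreme stages and for genes with neither pair called different, the share over all tested genes was not computed, so those counts describe the genes apart only. Over all genes tested, 2052 (14.0%) had both steps called in 1 direction and 786 (5.4%) in opposite directions, 436 of the latter rising into quiescence and falling into differentiation.

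**Figure D2:**
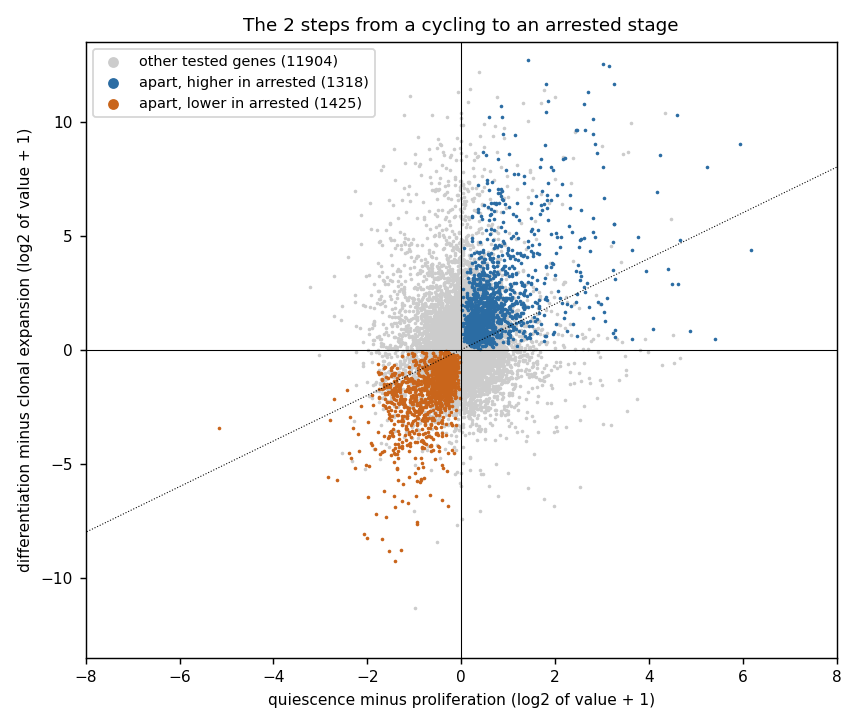
Each point is 1 gene, with the step from proliferation to quiescence on the x axis and that from clonal expansion to differentiation on the y axis, both as differences of log2(value + 1), and the dotted line marking equal steps. Most of the 1318 higher (blue) and 1425 lower (orange) genes lie farther from 0 on the y axis than on the x axis, and grey points fill the quadrants of opposite steps.

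The test above takes its error from the 2 libraries of each stage. Other scalings were the same total per library and quantile normalization. When the 4 arrested libraries were fitted as a single group against the 4 cycling ones, so that differences between stages of 1 state counted as spread, 76 genes were higher and 107 lower. Of the replication and mitosis genes 15 and 8 were lower in that fit. Most counts of the other lists given here moved in it too, 47 against 21 that did not.

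Abca8a, a lipid transporter of the ABC family, had the widest gap among the abundant higher genes. It measured 68.1 and 43.3 at proliferation, 17.8 and 13.2 at clonal expansion, 1005 and 996 at quiescence and 1728 and 2297 at differentiation, a difference of 5.56 ± 0.19 (limma adjusted p = 1.56e-08) with a gap of 3.85. Rnf112, a ring finger GTPase best known from brain, measured 78.4 and 34.4 at proliferation, 59.3 and 69.1 at clonal expansion, 748 and 889 at quiescence and 716 and 704 at differentiation (3.70 ± 0.23). Its arrested libraries sat within a narrow band, and its steps of 3.94 and 3.45 were not called different (limma adjusted p = 0.374). Agtr2, the type 2 angiotensin receptor, measured 9.21 and 0.81 at proliferation, 25.3 and 42.4 at clonal expansion, 320.4 and 299 at quiescence and 602 and 783 at differentiation. In each of these 3 genes quiescence was well above both cycling stages. AW112010, an interferon-inducible transcript, lay at 2.60 to 14.5 in cycling and 97.2 to 336 in arrested libraries. Adh1, an alcohol and retinol dehydrogenase, measured 195 and 132 at proliferation, 18.7 and 15.9 at clonal expansion, 1417 and 1006 at quiescence and 6502 and 7896 at differentiation, with clonal expansion below proliferation and differentiation above quiescence. The remaining abundant genes with wide gaps were mainly fat cell transcripts with a small part of their rise at quiescence. Adrb3, the fat cell adrenergic receptor, went from at most 2.77 in cycling libraries to 32.6 and 21.7 at quiescence and 7322 and 9655 at differentiation. Lgals12, a galectin of the lipid droplet, lay at 10.3 to 29.3 in cycling and 153 to 30567 in arrested libraries, and the unnamed transcripts 4930511E03Rik and 9030619P08Rik followed the same order. Among the other abundant genes apart, whatever the width of their gap, the largest differences included such genes too. They were Retn, the hormone resistin (7.79 ± 0.26), Adipoq, the hormone adiponectin (7.44 ± 0.15), 4632428N05Rik (7.06 ± 0.26) and Gpr81, the lactate receptor (6.73 ± 0.26). In Retn the clonal expansion libraries were already above the proliferating ones.

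Genes with the widest gaps in the lower direction were led by Krt15, a keratin, at 2294 and 1961 at proliferation, 8095 and 9777 at clonal expansion, 394 and 287 at quiescence and 244 and 118 at differentiation, a difference of -4.18 ± 0.21 (limma adjusted p = 1.38e-07). Lrp8, a receptor for apolipoprotein E and reelin, measured 1530.2 and 2304 at proliferation, 2717 and 3126 at clonal expansion, 373 and 369 at quiescence and 109.6 and 107 at differentiation, and Ptprn, a protein of secretory granules, 8757 and 9819 at proliferation, 16616 and 15411 at clonal expansion, 2718 and 2167 at quiescence and 905 and 972 at differentiation. All 3 had quiescence at an intermediate level and differentiation lowest. Vgf, a secreted neuropeptide precursor, lay at 123 to 728 in cycling and 1.04 to 39.1 in arrested libraries. Bcat1, which starts the breakdown of branched-chain amino acids in the cytosol, measured 16909 and 21752 at proliferation, 23661 and 24498 at clonal expansion, 6195 and 5746 at quiescence and 1073 and 1053 at differentiation. Serpinb9b, a protease inhibitor, lay at 1346 to 2002 in cycling and 213 to 513 in arrested libraries. Dlx1as, antisense to the homeobox gene Dlx1, lay at 284 to 351 in cycling and 22.1 to 114 in arrested libraries, and since the libraries do not keep strand its reads cannot be told from those of Dlx1. Ctgf, a matricellular target of YAP, measured 817 and 3318 at proliferation, 598 and 639 at clonal expansion, 229 and 233 at quiescence and 9.53 and 15.4 at differentiation. Proliferation 2 stood far above proliferation 1, and without the library proliferation 2 its difference was -3.69 instead of -4.19. Among the other abundant genes apart, whatever the width of their gap, the largest differences were in further genes highest at clonal expansion. They were Ramp3, a receptor partner (-5.33 ± 0.25), Akp3, an alkaline phosphatase (-5.14 ± 0.52), Sprr2k (-4.99 ± 0.33), H2-M1 (-5.17 ± 0.45) and H2-M9 (-5.02 ± 0.35). H2-M1 and H2-M9 belong to families of near-identical copies that the counting could split. Ramp3 measured 52.7 and 50.4 at proliferation, 24309 and 19609 at clonal expansion, 30.0 and 11.8 at quiescence and 39.6 and 30.4 at differentiation, so that proliferation was hardly above the arrested libraries.

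**Figure D3:**
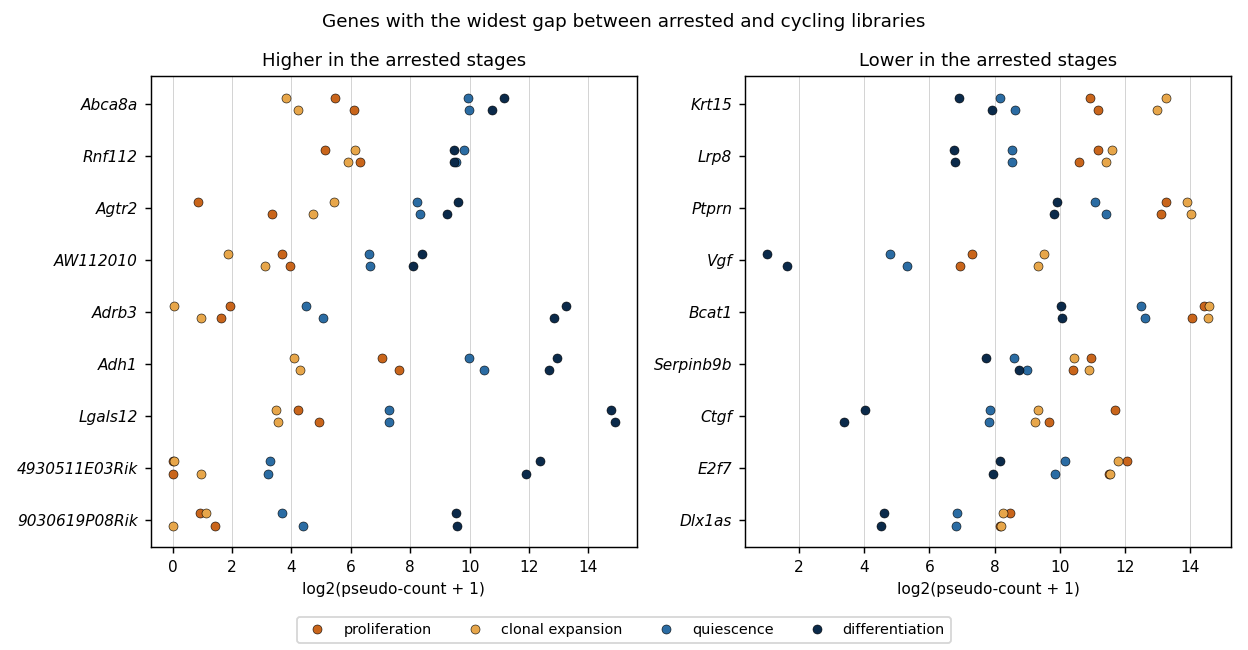
log2(pseudo-count + 1) in each of the 8 libraries for 9 higher and 9 lower genes among the 10 per direction with the widest gap of those with a mean of at least 200 in their higher state; the 2 libraries of a stage are set slightly above and below each other. Abca8a and Rnf112 have both quiescent libraries beside the differentiated ones, while Adrb3, Lgals12 and Vgf have quiescence between.

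A few genes had nearly equal steps. C85492, a transcript with no assigned function, measured 1156 and 951 at proliferation, 1051 and 1066 at clonal expansion, 2364 and 2089 at quiescence and 1973 and 2369 at differentiation: the cycling libraries of both stages were alike and so were the arrested ones, with steps of 1.08 and 1.03. Paics, of purine synthesis, was the counterpart among lower genes, at 36469.7 and 40234 at proliferation, 39164 and 36015 at clonal expansion, 28234 and 26405 at quiescence and 28608 and 25436 at differentiation (-0.48 ± 0.08). Smaller even differences were found in Stk24, a kinase (-0.35 ± 0.07), Cops2, of the COP9 signalosome (-0.23 ± 0.08), 1810074P20Rik (0.31 ± 0.08) and Fam174a (0.28 ± 0.09). The call of Cops2 was lost without clonal expansion 1, differentiation 2, proliferation 2 or quiescence 1, and that of Fam174a without clonal expansion 2, differentiation 1 or proliferation 2.

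Ribosome biogenesis and nuclear transport genes were mostly lower in the arrested stages by the contrast, and 53 of 54 and 25 of 30 were called higher at clonal expansion than at proliferation (32.7% of all tested genes were). Of 54 ribosome biogenesis genes, 52 were lower in the contrast but 16 (29.6%) were apart. Clonal expansion exceeded proliferation by a median of 1.59 while the step from proliferation to quiescence had a median of -0.39. Those apart were 29 with the same total per library, 25 without differentiation 2 and 30 without proliferation 1. Fbl, the methylase of ribosomal RNA, measured 2448 and 3990.4 at proliferation, 6053 and 6871 at clonal expansion, 1852 and 1966 at quiescence and 1278 and 1712 at differentiation. Utp20 and Mybbp1a, nucleolar proteins, lay at 12377 to 27453 in cycling and 5592 to 9779.8 in arrested libraries and at 41705 to 105729 in cycling and 21205 to 33175 in arrested libraries. Of 30 nuclear transport genes 23 (76.7%) were apart and lower and none higher, with a median difference of -0.70. Kpnb1, importin beta, measured 82033 and 102621 at proliferation, 135986 and 134323 at clonal expansion, 59962 and 60577 at quiescence and 53803 and 59793 at differentiation (-0.93 ± 0.09). Nup93 and Nup43, of the nuclear pore, lay at 10416 to 20332 in cycling and 5848 to 7905 in arrested libraries and at 1766 to 4096 in cycling and 1233 to 1386 in arrested libraries. Among 27 genes of the Myc network 7 (25.9%) were apart and lower and 1 (3.7%) was higher, against 9.73% and 9.00% of all tested genes. Of the 7 lower genes, 6 encode subunits of the CCT chaperonin. Cct2 and Cct4 lay at 221456 to 415078 in cycling and 141605 to 191354 in arrested libraries and at 36754 to 73383 in cycling and 25461 to 31974 in arrested libraries, and Odc1, the first enzyme of polyamine synthesis, at 8160.2 to 17186 in cycling and 5202 to 6529.5 in arrested libraries. With the same total per library or after quantile normalization 11 were lower, as without proliferation 1. The higher gene was Mxi1, a Myc antagonist (at 1957 to 2446 in cycling and 3220.2 to 15295 in arrested libraries), and 2 were higher without proliferation 1. Of 38 genes for tRNA charging and amino acid supply, 9 were apart and lower, 7 of them synthetases such as Nars (at 32177 to 36123 in cycling and 23929 to 26626 in arrested libraries), with the amino acid transporters Slc38a1 (at 1607 to 2395 in cycling and 77.2 to 1081 in arrested libraries) and Slc7a1 (at 14676 to 19107 in cycling and 8151 to 11959 in arrested libraries). Slc7a3, another such transporter, and Pycr1, of proline synthesis, were higher (0.93 ± 0.17 and 0.64 ± 0.08). Under either other scaling Slc7a3 was no longer apart.

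Of 28 immediate early genes 4 (14.3%) were apart and lower. Of 37 actin, SRF and YAP target genes 7 (18.9%) were, with 1 (2.7%) higher. Over all tested genes 9.73% were apart and lower and 9.00% higher. Among the 37, quiescence was called above clonal expansion in 20 (34.4% of all tested genes were) and below it in 6, with a median difference of 0.5. Junb, an AP-1 subunit, measured 10689 and 47193 at proliferation, 23217 and 22624 at clonal expansion, 8106 and 6303 at quiescence and 1710.4 and 1643 at differentiation, with proliferation 2 high, and its difference was -2.71 with and -2.18 without that library. Cyr61, a matricellular protein, and Ptgs2, the inducible cyclooxygenase, had the same feature, with 26862 and 105613 and 2141 and 9994 in proliferation 1 and 2, and their differences without proliferation 2 were -2.28 and -2.39. Without proliferation 1, 9 immediate early genes were apart and lower. Nr4a2, a nuclear receptor, lay at 644 to 878 in cycling and 129 to 481 in arrested libraries, Phlda1 at 3921 to 6488 in cycling and 1602 to 3103 in arrested libraries, and Tpm4, a tropomyosin, at 87367 to 128658 in cycling and 24679.7 to 64941 in arrested libraries.

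Of 34 FoxO target and quiescence genes 8 (23.5%) were apart and higher and none lower, against 9.00% and 9.73% of all tested genes. Txnip, which inhibits thioredoxin and glucose uptake, measured 18739 and 20992 at proliferation, 19261 and 17770.3 at clonal expansion, 50180.4 and 41511 at quiescence and 78159 and 72611 at differentiation. The 4 cycling libraries were alike and all arrested ones were higher, a difference of 1.61 ± 0.08 (limma adjusted p = 1.88e-07). Hbp1, a repressor of cell cycle genes, measured 12734 and 10743 at proliferation, 5614 and 5329 at clonal expansion, 17349 and 17063 at quiescence and 21679 and 21937 at differentiation, with clonal expansion below proliferation. Besides Mxi1, the others were Foxo4, Klf15, Sesn1, Bnip3l and Pnrc1. Forkhead letters stood in 15.9% of the 44 windows of the whole list, apart or not, against 2.6% of all tested. The list is named for FoxO targets, so this share reflects the choice of its members and not these data. Of 64 lysosome and autophagy genes 16 (25.0%) were apart and higher, with a median difference over the list of 0.33, and 1 was lower. Lipa, the lysosomal acid lipase, measured 19013 and 16241 at proliferation, 10193 and 9092 at clonal expansion, 28324 and 27131 at quiescence and 33494 and 28634 at differentiation (1.17 ± 0.08). Ctsf, a cathepsin, lay at 1032 to 1589 in cycling and 2074 to 3029.6 in arrested libraries, and Manba, which cleaves mannose from glycoproteins, at 270.3 to 647 in cycling and 828 to 2799 in arrested libraries. The lower member was Tfe3, a transcription factor of lysosomal genes (-0.49 ± 0.07), which was not apart under either other scaling, and 2 were lower without quiescence 1.

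**Figure D4:**
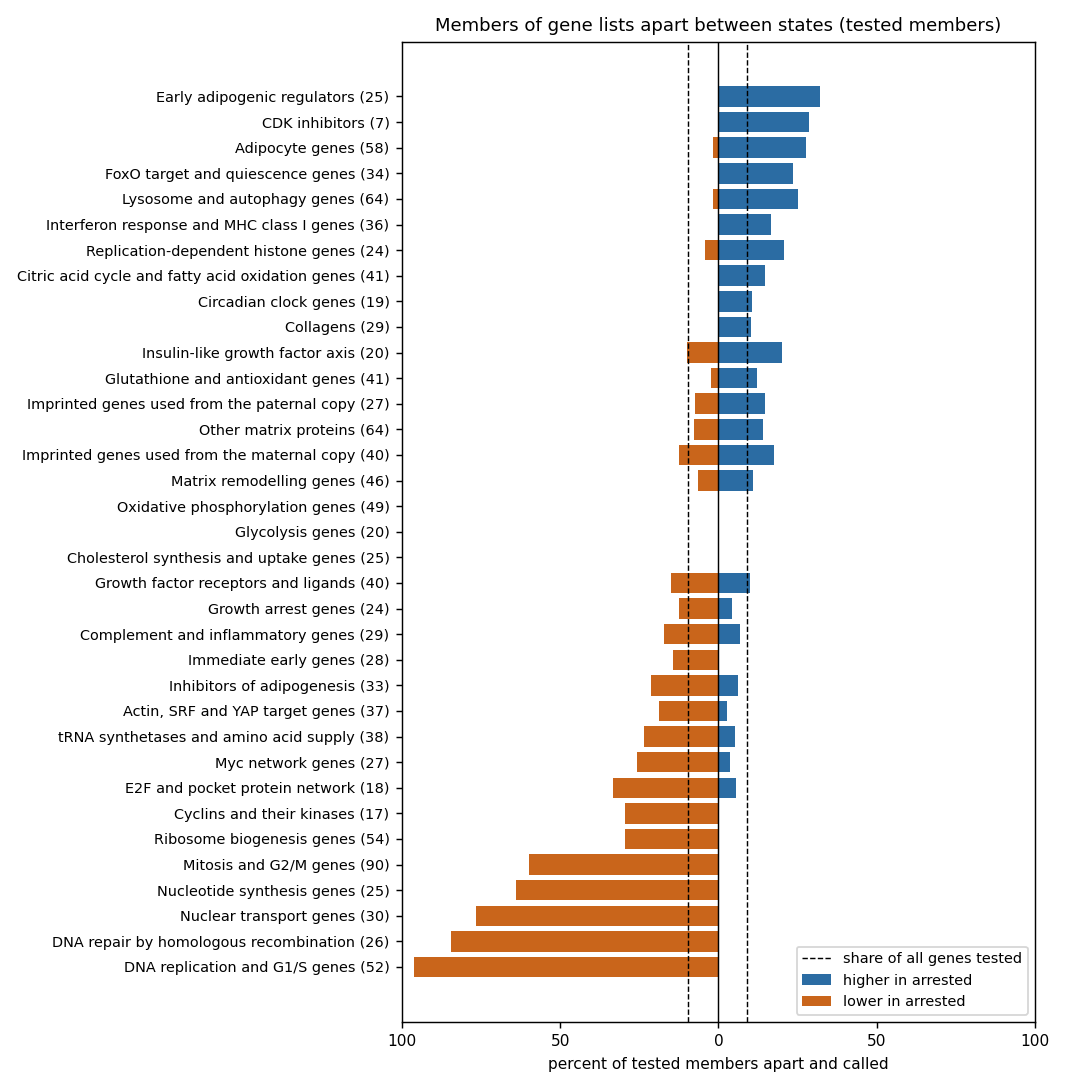
Percent of the tested members of each of 35 gene lists (number in brackets) that were apart and higher (blue, to the right) or apart and lower (orange, to the left) in the arrested stages, with dashed lines at the shares of all genes tested, 9.00% and 9.73%. Replication, recombination, nuclear transport, nucleotide synthesis and mitosis genes reach furthest to the left, and no list reaches past 32.0% to the right.

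Imprinted genes went both ways. Of 67 tested, 11 (16.4%) were apart and higher and 7 (10.4%) lower, where 9.00% and 9.73% of all tested genes were, and 49 were not apart. Besides Cdkn1c, the higher ones included Igf2, Mest, Zrsr1, Ppp1r9a and Pon3, and the lower ones Peg12, Slc38a4, Atp10a, Tnfrsf22 and Tnfrsf23. With the stages of a state taken as spread, 3 were higher and none lower (limma, 2 groups of 4). Mest, a hydrolase of the paternal copy, measured 1072 and 713 at proliferation, 1399.8 and 821 at clonal expansion, 3342 and 2919.7 at quiescence and 5117 and 4662 at differentiation. The groups did not overlap, a difference of 2.01 ± 0.18 (limma adjusted p = 5e-06), and its steps of 1.84 and 2.19 were not called different (limma adjusted p = 0.411). Igf2, the fetal growth factor, measured 2295 and 1919 at proliferation, 40685 and 49681 at clonal expansion, 54325 and 70440.4 at quiescence and 69026 and 94462 at differentiation. It was apart by a gap of only 0.13, because clonal expansion was already close to quiescence, and its steps were 4.88 and 0.84 (limma adjusted p of the difference 1.02e-06). Igf2as, its antisense transcript, lay at 12.2 to 48.2 in cycling and 163 to 989 in arrested libraries, with reads that cannot be told from those of Igf2 without strand. Ppp1r9a, a neuronal actin-binding protein of the maternal copy, measured 52.2 and 54.1 at proliferation, 22.5 and 30.3 at clonal expansion, 128 and 177 at quiescence and 601 and 488 at differentiation. Zrsr1, a splicing factor relative that lies inside another gene, measured 3461 and 3413 at proliferation, 2354 and 2128 at clonal expansion, 4989.9 and 4640.4 at quiescence and 3946 and 3926 at differentiation, and Pon3, a lactonase, lay at 34.6 to 53.6 in cycling and 61.9 to 201 in arrested libraries. Slc38a4, an amino acid transporter of the paternal copy, measured 24779.8 and 29213 at proliferation, 14577 and 15628 at clonal expansion, 11496 and 13313 at quiescence and 2224 and 2435 at differentiation, and was not apart under either other scaling. Zrsr1 was not apart with the same total per library, nor Pon3 after quantile normalization. The remaining lower gene of the paternal copy, Peg12, lay at 1412 to 3446 in cycling and 143 to 1160.3 in arrested libraries. Atp10a, a phospholipid flippase, lay at 4263 to 6847 in cycling and 1240.4 to 2974 in arrested libraries. Tnfrsf22 and Tnfrsf23, decoy death receptors of similar sequence whose reads could be shared, lay at 1236 to 3109 in cycling and 524 to 830.0 in arrested libraries and at 2732 to 6442 in cycling and 1663 to 1929 in arrested libraries.

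Several well-known imprinted genes were not apart between the states. H19, the noncoding RNA next to Igf2, measured 873 and 668 at proliferation, 4733 and 6794 at clonal expansion, 2639 and 3411 at quiescence and 357 and 594 at differentiation: it rose into quiescence by 1.97 and fell into differentiation (-3.62). Dlk1, an inhibitor of adipogenesis shed by preadipocytes, measured 345246 and 310009 at proliferation, 466642 and 415846 at clonal expansion, 564052 and 448657 at quiescence and 43216 and 51599 at differentiation, with steps of 0.62 and -3.22. Plagl1, a zinc finger factor that causes growth arrest when overexpressed, was lowest at proliferation, at 66.2 and 60.9 at proliferation, 347 and 278 at clonal expansion, 675 and 699 at quiescence and 286 and 546 at differentiation, and was not apart because a differentiated library lay below a clonal expansion one. Peg3 measured 28446 and 24677 at proliferation, 11858 and 15637 at clonal expansion, 22079 and 54965 at quiescence and 19359.9 and 21529 at differentiation and had no call (limma adjusted p = 0.0861). Igf2r, the receptor that clears Igf2, was higher in the contrast (0.62 ± 0.11) and in both steps (0.68 and 0.56, both called) without being apart, while Grb10, an adaptor that restrains insulin signalling (-0.75 ± 0.19), Ndn, or necdin (-0.50 ± 0.12), and Gnas, which encodes a stimulatory G protein subunit (-0.32 ± 0.11), were lower without being apart. Nnat, a proteolipid, had no call (0.40 ± 0.24). In all, 16 of the 67 (23.9%) had both steps called in 1 direction and 6 (9.0%) in opposite directions, against 14.0% and 5.4% of all tested genes.

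**Figure D5:**
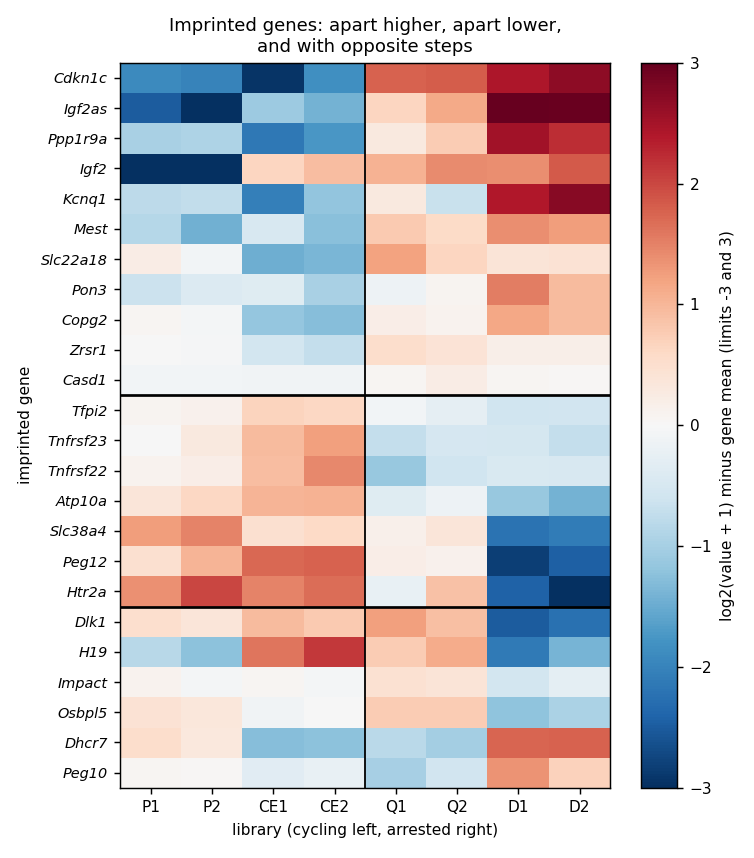
log2(value + 1) minus each gene's mean over the 8 libraries for the imprinted genes that were apart and higher (top, 11), apart and lower (middle, 7) or had steps called in opposite directions (bottom, 6), with cycling libraries on the left. Cdkn1c is low in all 4 cycling and high in all 4 arrested libraries, Igf2 is low at proliferation alone, and Dlk1 and H19 are low at differentiation.

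Matrix genes, the other class the series is about, were apart in a share near that of all tested genes. Of 139 in 3 lists, 17 (12.2%) were apart and higher and 8 (5.8%) lower, against 9.00% and 9.73% of all tested genes. Opposite steps were called in 34 (24.5%, against 5.4% of all tested genes), 30 of them up at quiescence and down at differentiation. Among 29 collagens, Col15a1, Col11a1 and Col5a3 were apart and higher and none lower. Col15a1, a basement membrane collagen, measured 3866 and 2951 at proliferation, 7695 and 7773 at clonal expansion, 18668 and 20400.3 at quiescence and 64371 and 63381 at differentiation (2.79 ± 0.09), and Col11a1, a fibrillar one, lay at 6688 to 9662 in cycling and 10591 to 23394 in arrested libraries. Col1a1 was not called, at 815729 and 749172 at proliferation, 736184 and 704238 at clonal expansion, 1397193 and 1301607 at quiescence and 325354 and 391835 at differentiation, with steps of 0.79 and -1.01. Col3a1 (0.80 ± 0.13), Col4a1 (-0.43 ± 0.10) and Fn1, or fibronectin (-0.90 ± 0.11), were called without being apart. Lum, a collagen-binding proteoglycan, measured 363 and 190.3 at proliferation, 1535 and 1158 at clonal expansion, 5850.0 and 6044 at quiescence and 8663 and 11451 at differentiation. Nid2, nidogen 2, and Lama4, a laminin chain, both of basement membranes, lay at 12296 to 18731 in cycling and 36919 to 58641 in arrested libraries and at 29151 to 45262 in cycling and 88158 to 99509.8 in arrested libraries. Dcn, or decorin, was lowest at proliferation and was not apart, at 3379.7 and 2687 at proliferation, 27278 and 21011 at clonal expansion, 50721 and 45318 at quiescence and 20096 and 25359.5 at differentiation. Among the lower genes, Lama5, another laminin chain, lay at 3389.8 to 10339.8 in cycling and 522 to 1575 in arrested libraries, Ecm1 at 28562 to 85228 in cycling and 4581 to 20416 in arrested libraries and Fbln5, of elastic fibres, at 29989 to 52609.7 in cycling and 9074 to 25475 in arrested libraries. Of the remodelling genes, Timp4, an inhibitor of metalloproteases, measured 377 and 173 at proliferation, 75.9 and 46.6 at clonal expansion, 875 and 854 at quiescence and 5150.1 and 4867 at differentiation and Fap, a protease of activated fibroblasts, 55.5 and 33.0 at proliferation, 101 and 56.8 at clonal expansion, 484 and 279.6 at quiescence and 171 and 199 at differentiation. Timp3, of the same inhibitor family, went the other way (-2.98 ± 0.09), as did the crosslinking enzymes Loxl3 (-2.11 ± 0.08) and Loxl4 (-1.92 ± 0.08). The remodelling genes apart and higher were 3 instead of 5 after quantile normalization, and those lower 5 instead of 3 without quiescence 1. Mmp2, a gelatinase, had opposite steps (1.76 and -1.35) and no call in the contrast. Pdgfra, the receptor induced at confluence, measured 54278 and 42783 at proliferation, 49681 and 52484 at clonal expansion, 106606 and 133555 at quiescence and 37386 and 50152 at differentiation, so that only quiescence stood out.

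Fat cell genes were higher in the arrested stages by way of differentiation. Of 58 adipocyte genes 55 were higher in the contrast (median difference 3.04), but 16 (27.6%) were apart. Adipoq measured 42.3 and 25.7 at proliferation, 397 and 422 at clonal expansion, 910.2 and 744 at quiescence and 485712 and 532404 at differentiation. Its quiescent libraries were already above those of clonal expansion, which in turn exceeded proliferation. Angptl4, which inhibits lipoprotein lipase, measured 7286 and 7271 at proliferation, 5409 and 4137 at clonal expansion, 21679.8 and 23227 at quiescence and 41750.3 and 37362 at differentiation, and Slc27a1, a fatty acid transporter, 5788 and 4108 at proliferation, 959 and 827 at clonal expansion, 15804 and 14149 at quiescence and 15647 and 18351 at differentiation. In both, quiescence was called above both cycling stages. Fabp4, the fatty acid carrier, was not apart, at 2727 and 2739 at proliferation, 2115 and 2351 at clonal expansion, 2359.7 and 1736 at quiescence and 1145776 and 1095174 at differentiation. The 1 lower gene was Elovl6, which elongates fatty acids (at 6212 to 12518 in cycling and 3002 to 4614 in arrested libraries). Of 25 early adipogenic regulators 8 (32.0%) were apart and higher and none lower. Cebpa measured 2150.2 and 1604 at proliferation, 2577 and 2018 at clonal expansion, 4576 and 3867 at quiescence and 76421 and 80355 at differentiation (3.14 ± 0.12). Pparg, the master regulator, measured 5456 and 4685 at proliferation, 5392 and 4295 at clonal expansion, 6455 and 5884 at quiescence and 71292 and 65599 at differentiation, with a gap of 0.11 and a step to quiescence that was not called (0.29, limma adjusted p = 0.144). Zfp423, a determinant of preadipocyte identity, measured 3332 and 2489 at proliferation, 973 and 981 at clonal expansion, 4671 and 4562 at quiescence and 4470.4 and 5168 at differentiation, and Stat5b lay at 5207 to 7312 in cycling and 9097 to 11299 in arrested libraries. Cebpb, induced by the cocktail, was highest at clonal expansion (4032 and 3996 at proliferation, 27886 and 21541 at clonal expansion, 5478 and 4051 at quiescence and 12069 and 11480.5 at differentiation). Of 33 inhibitors of adipogenesis, 7 (21.2%) were apart and lower and 2 (6.1%) higher, against 9.73% and 9.00% of all tested genes. The lower ones took in all 4 Id genes, which block basic helix-loop-helix factors. Id1 measured 22129 and 26972 at proliferation, 46214 and 40130.3 at clonal expansion, 9597 and 7708 at quiescence and 8922 and 8593 at differentiation, with quiescence and differentiation alike (-1.90 ± 0.10, limma adjusted p = 1.62e-07). Id3 measured 16314 and 21373 at proliferation, 20961 and 18425 at clonal expansion, 8706 and 6859 at quiescence and 1009.9 and 989 at differentiation and Id2 5696 and 7164 at proliferation, 10650.2 and 9998 at clonal expansion, 3387 and 3719.6 at quiescence and 148 and 261 at differentiation, both with differentiation far below quiescence. The higher ones were Ddit3 and Tgfb2, which lay at 2009.7 to 2782 in cycling and 3698 to 3942 in arrested libraries.

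Of 20 genes of the insulin-like growth factor axis 4 were apart and higher and 2 lower, against 9.00% and 9.73% of all tested genes. Besides Igf2, Irs1, the insulin receptor substrate, measured 19624 and 18555 at proliferation, 3450.5 and 3868 at clonal expansion, 22830.0 and 31601 at quiescence and 21544 and 27825 at differentiation, which left clonal expansion far below the other stages. Stc1 and Stc2, stanniocalcins that inhibit the cleavage of binding proteins, lay at 1675 to 2116 in cycling and 2483 to 6634 in arrested libraries and at 16.3 to 24.6 in cycling and 31.5 to 70.0 in arrested libraries. Igf2bp1 and Igf2bp3, which bind Igf2 messenger RNA, were lower (-0.65 ± 0.09 and -0.84 ± 0.07). Under either other scaling 2 of the axis were apart and higher, and with the same total per library 1 was lower. Of 40 growth factor receptors and ligands 4 (10.0%) were apart and higher and 6 (15.0%) lower, near the shares of all tested genes. Ghr, the growth hormone receptor, lay at 31971 to 44579.6 in cycling and 64097 to 101578 in arrested libraries, Fgfr1 at 51956 to 68802 in cycling and 90092 to 135876 in arrested libraries and Vegfb at 3172 to 7058 in cycling and 7961 to 10889 in arrested libraries. The lower ones included Inhba, the activin A subunit (at 2350.2 to 4764 in cycling and 135 to 1288 in arrested libraries), and the EGF receptor ligands Ereg (at 2656 to 15617 in cycling and 346 to 2174 in arrested libraries) and Areg (at 19.9 to 26.4 in cycling and 0.28 to 15.8 in arrested libraries).

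Defence genes were counted in separate lists. Of 36 interferon response and MHC class I genes, 28 were higher in the contrast (34.4% of all tested genes were). Of these genes 6 (16.7%) were apart and higher and none lower, against 9.00% and 9.73% of all tested genes. Clonal expansion was called below proliferation in 31 of the 36 (32.1% of all tested genes were), with a median of -1.64. Differentiation minus quiescence had a median of -1.0. Gbp2, an interferon-induced GTPase, measured 1392 and 973 at proliferation, 73.2 and 70.7 at clonal expansion, 2241 and 2181 at quiescence and 1627 and 2187 at differentiation, with clonal expansion lowest by far. Gbp3 lay at 27.3 to 560.2 in cycling and 629 to 923 in arrested libraries, with sequence close to that of Gbp2, and Tap2, a peptide transporter, at 1612 to 3399.7 in cycling and 4862 to 6885 in arrested libraries. With the same total per library 2 were apart, without Gbp2 and Gbp3, and 11 were apart without proliferation 1. Of 29 complement and inflammatory genes 2 (6.9%) were apart and higher and 5 (17.2%) lower. By the contrast 9 were higher and 11 lower, with a median difference of 0.07. C3, the central complement component, measured 9896 and 7608 at proliferation, 54993 and 50926 at clonal expansion, 78588 and 85276 at quiescence and 1279949 and 1510945 at differentiation, and C4b, which has a near-identical copy in C4a, lay at 184 to 1651 in cycling and 1782 to 2919 in arrested libraries. Masp1, a protease of the lectin pathway, and Ccl7, a chemokine, were lower (-2.57 ± 0.10 and -2.02 ± 0.15).

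Of 41 genes of fatty acid oxidation and the citric acid cycle, 6 (14.6%) were apart and higher and none lower, against 9.00% and 9.73% of all tested genes. Ech1, Acaa1a and Acadm, enzymes of fatty acid oxidation, had differences of 1.62 ± 0.10, 1.24 ± 0.11 and 1.95 ± 0.08. Of 41 glutathione and antioxidant genes 5 (12.2%) were higher and 1 lower. Without quiescence 2 the counts of higher genes were 12 and 10. Mgst1, a membrane glutathione transferase, measured 16634 and 14584 at proliferation, 7307 and 5072 at clonal expansion, 30288 and 29222 at quiescence and 73898 and 83887 at differentiation. Gstt3, a glutathione transferase, and Aox1, an aldehyde oxidase, differed by 1.57 ± 0.09 and 1.77 ± 0.10, and Txnrd1, thioredoxin reductase, by -0.93 ± 0.09. The lower ones were 4 with the same total per library, 2 after quantile normalization or without quiescence 1, and 5 without proliferation 1. Of 19 circadian clock genes Nr1d1 and Tef were higher (1.08 ± 0.08 and 0.73 ± 0.08), of which Tef was not apart under either other scaling, and 4 were higher without proliferation 1 or without quiescence 1. Of 52 replication-dependent histone genes with values, only 24 passed the filter. Among those 24, 5 (20.8%) were apart and higher and 1 (4.2%), H2afx, lower (-1.26 ± 0.12). Hist1h2be (at 109 to 168 in cycling and 231 to 749 in arrested libraries) and Hist1h2ac (at 123 to 177 in cycling and 213 to 309.7 in arrested libraries) had the widest gaps, at low values and with near-identical copies, and Hist2h2aa1 lay at 11.9 to 22.9 in cycling and 27.4 to 36.2 in arrested libraries. The last lost its call in 5 of the 8 fits that left out a library, those without clonal expansion 2, differentiation 2, proliferation 2, quiescence 1 or quiescence 2. After quantile normalization 1 histone gene was apart and higher, and without quiescence 2 there were 2 lower. In 3 lists no gene was apart in either direction. Of 25 cholesterol synthesis and uptake genes, 23 fell from proliferation to quiescence and 20 rose from clonal expansion to differentiation, with medians of -1.54 and 1.84. Of 20 glycolysis genes, 10 fell in the first step and 14 rose in the second (medians -0.48 and 0.87). Of 49 oxidative phosphorylation genes, 2 fell in the first and 46 rose in the second (medians -0.14 and 1.29). Over all tested genes 11.8% fell in the first step and 36.8% rose in the second. Leaving out single libraries put at most 2 genes of these lists apart.

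At the threshold of separation the groups nearly touched. Ankrd39, just inside, had its lowest arrested library at 1135 and its highest cycling library at 1134. Just outside, Os9 had an arrested library at 22965 and a cycling one at 22969. Of the genes apart, 194 higher and 226 lower had a gap under 0.05 on the log2 scale, and 88 and 60 had a gap of at least 1.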

How the data were processed

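The 8 RNA-seq libraries were made from total RNA with an unstranded TruSeq kit and sequenced as single reads of 100 nt on an Illumina HiSeq, per the labels' protocols. The deposited values are a signal per gene, pseudo-counts that the authors made with edgeR's relative log expression factors by which counts are put on an equal library size, per the labels. The submitters' processing notes name the mm9 genome, CASAVA 1.8.2 and edgeR; the aligner and gene models are not given in the sources used here. As whole reads could not be recovered, no count method was applied. Of 22798 genes, 3848 were below 1 in every library, and the 14647 with a mean of at least 10 were tested. A gene present in 1 state only passed that filter through that state.

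The limma package (3.58.1, in R 4.3.3) fitted the 4 stages to log2(value + 1) with a mean-variance trend (4 residual degrees of freedom, 9.778 with those borrowed across genes), and Python 3.11.15 with numpy 2.4.6 and pandas 2.3.3 did the rest. P-values were two-sided and adjusted over all genes tested by the Benjamini-Hochberg method, with a threshold of 0.05. The state contrast was the mean of quiescence and differentiation minus that of proliferation and clonal expansion, and the gap is the log2 distance between the nearest arrested and cycling libraries. On simulated data for 14647 genes, the state contrast recovered 44.8%, 71.6% and 90.9% of genes changed by 1.5, 2 and 4-fold. The simulation changed 200 genes and gave the stages of a state no differences. In the data 67.1% of genes were called in the contrast and stages of a state differed, so these rates need not carry over.

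The members, the 35 gene lists and 7 marker lists (macrophage and blood, endothelium, epithelium, muscle, bone and cartilage, nerve and glia, fibroblast, fat cell) were chosen with earlier results of these data known. Lists share members, such as Cdkn1c and Mxi1. The imprinted lists had 89 genes, of which 82 occurred in the table and 67 passed the filter. Genes named were the 10 widest gaps per direction among genes whose higher state averaged 200 or more, the 5 largest differences besides, up to 3 per list and direction, the 3 with the most even steps per direction and a set of well-known genes; some of the genes these rules name are not reported here. Genes named as exceptions to or the remainder of a count, or at the threshold, were chosen after their values were seen. Alternatives were a pseudocount of 8, no filter, a mean of at least 50, the same total per library, quantile normalization, no trend, a replicate block, 2 groups of 4, and leaving out each library.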

Additional observations from a re-analysis of the deposited data

Results flagged for a closer look

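Of the 196 genes named in the report that were tested, 76 stood out because the step from proliferation to quiescence and that from clonal expansion to differentiation differed, by limma's test of the difference between the steps (adjusted p under 0.05) and by at least 2 on the log2 scale. Values are the first step minus the second, so that a gene that rose more into differentiation has a negative value and a gene that fell more into it a positive one. The second step was the larger in 70 of them and the first in 6, and the steps had opposite signs in 7. Differentiation cells had received the hormones and quiescent cells had not, and the arrest and the treatment cannot be told apart in these values.

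Those larger in the first step were C4b (2.48, from steps of 3.23 and 0.75), Dcn (4.08, from steps of 3.99 and -0.08), Igf2 (4.04, from steps of 4.88 and 0.84), Mmp2 (3.11, from steps of 1.76 and -1.35), Plagl1 (3.07, from steps of 3.42 and 0.35) and Brca1 (-2.26, from steps of -1.48 and 0.78). Igf2, C4b and Plagl1 were low at proliferation alone. Other genes with opposite signs were Dlk1 (3.84, from steps of 0.62 and -3.22), H19 (5.59, from steps of 1.97 and -3.62), Gas6 (2.73, from steps of 0.48 and -2.25) and Fabp4 (-9.40, from steps of -0.43 and 8.97).

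Fat cell and related transcripts had the largest negative values, with 4632428N05Rik (-11.29), Gpr81 (-9.84), Klf15 (-9.84), Adrb3 (-9.52), Retn (-9.27), Lgals12 (-8.61), 4930511E03Rik (-8.38), 9030619P08Rik (-6.15), Adipoq (-5.68) and Adh1 (-5.73). Further genes that rose more into differentiation were the regulators and signalling genes Cebpa (-3.92), Pparg (-3.54), Cdkn2c (-3.84), Ddit3 (-2.23) and Irs1 (-2.25), the enzymes and transporters Acadm (-3.26), Ech1 (-2.17), Aox1 (-2.75), Gstt3 (-2.30), Mgst1 (-2.76), Manba (-2.64), Slc27a1 (-2.63) and Abca8a (-2.75), and Gbp2 (-3.77), Gbp3 (-3.29), AW112010 (-2.97), Timp4 (-4.61) and Ppp1r9a (-2.84).

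Genes highest at clonal expansion had the largest positive values, with Ramp3 (7.85), H2-M9 (7.48), H2-M1 (7.28), Sprr2k (6.59), Akp3 (6.24) and Vgf (6.02). Of the cell cycle genes, Ccnd1 (3.54), Rrm2 (2.85), Exo1 (2.34), Cdc6 (2.32), Mcm5 (2.21), E2f8 (2.08), Uhrf1 (2.07) and Pcna (2.05) fell more into differentiation than into quiescence. So did the regulators and signalling genes Id2 (4.86), Id3 (3.02), Ereg (4.43), Inhba (3.49), Areg (3.11), Gadd45b (3.21), S1pr1 (3.19), Nr4a2 (2.17) and Junb (2.12), the matrix and adhesion genes Timp3 (4.33), Loxl3 (3.15), Ecm1 (3.12), Lama5 (2.58), Ctgf (2.73), Cyr61 (2.72) and Krt15 (3.05), and Peg12 (3.79), Masp1 (3.49), Slc38a1 (3.00), Bcat1 (2.82), Lrp8 (2.40), Dlx1as (2.17), Ptprn (2.16) and Ccl7 (2.09). Junb, Ctgf and Cyr61 rest in part on proliferation 2, which stood far above proliferation 1 in them.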

How the results depend on the processing

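Fitting the 8 libraries as 2 groups of 4 moved the counts of genes called and those of the replication, mitosis and imprinted lists: 76 genes were higher and 107 lower, both by the contrast and apart, with 15 replication and 8 mitosis genes lower and 3 imprinted genes higher and 0 lower. By construction that fit counts differences between the stages of a state as spread. Of the 196 genes named, 126 lost the call in it.

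Under the other settings the counts of genes apart stayed within 1.5 times those reported. They were 1434 higher and 1514 lower with no filter, 1173 and 1351 with a mean of at least 50, 1320 and 1424 with a pseudocount of 8, and 1318 and 1413 with no trend. The same total per library gave 1122 and 1612 and quantile normalization 1157 and 1484, so that 41.0% and 43.8% of the genes apart were higher, against 48.0% as reported. Leaving out 1 library gave 1339 to 1861 higher and 1453 to 1913 lower genes. With fewer libraries to lie beyond, these counts can only rise apart from the test, and the lone sample of a stage is assumed to vary like the others. Of the genes named, 17 lost the call with the same total and 19 after quantile normalization, among them Rbl2, Irs1, Slc38a4, Slc7a3, Tef, Tfe3, Zfp36l2, Cops2 and Igf2bp1 under both, and none changed direction under any setting.

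Deviations of libraries with the same experiment number were correlated across genes with r from 0.0126 to 0.354 over the 6 pairs of stages, 2 of them over 0.1, and the labels do not say what libraries of a number share, so that they were not treated as pairs. With the number as a replicate block 1318 genes were higher and 1425 lower, and no gene named changed its call. Values below about 10 pseudo-counts, as those of Cdkn1c in cycling libraries, rest on few reads.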
